A study of Mus musculus with 9 samples.

Results

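The 232 genes described here are long noncoding RNA (lncRNA) genes of the table that reached a set number of counts and lay clear of every protein-coding gene. They were chosen by measured counts and by position: rows typed lncRNA with at least 45 counts summed over the 9 libraries, whose span overlapped no protein-coding row on either strand. H19, Meg3 and Rian were set aside. The table held 22831 rows, of which 3842 were lncRNA rows, and 1693 of these reached 45 counts. The limit used only the sum over all libraries and not the treatment. Just inside it stood 2310020H05Rik, 4930443O20Rik and Gm7292 with 45 counts and 2310026L22Rik and 4930551L18Rik with 46 counts. Just outside it stood B230206L02Rik and 5033430I15Rik with 44 counts and Gm36684, Gm42133 and Gm45620 with 43 counts.

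The RNA came from C2C12, a wild-type mouse myoblast line, after the cells had been fused into multinucleated myotubes in medium with 2% horse serum for 5 to 7 days. Carnitine-treated cells received 200 µM palmitic acid together with 1000 µM carnitine, palmitic acid cells received 200 µM palmitic acid alone, and control cells were labelled only as controls. Each group had 3 libraries. For the carnitine-treated and palmitic acid groups the labels give a duration of 48 without a readable unit, and for controls they give none. The labels do not say what vehicle the controls received. C2C12 is a single established line, and nothing in the labels says that the 3 libraries of a group came from separate cultures, so p-values measure only the spread between these libraries. Palmitic acid is the main saturated fatty acid of animal fat, and carnitine is the carrier on which long-chain fatty acids enter mitochondria. All 14 listed myotube markers reached 1 FPKM (fragments per kilobase of row length and per unit of library depth, the authors' unit), among them the fusion factors Mymk and Mymx and the myosin heavy chains Myh3 and Myh8.

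LncRNAs are transcribed and often spliced like messenger RNA but are not known to be translated. Some act as scaffolds in the nucleus: Malat1 RNA gathers in nuclear speckles, Neat1 RNA builds paraspeckles, and Xist RNA coats and silences the X chromosome from which it is made. Others are known mainly as hosts, whose introns or exons release small nucleolar RNAs or microRNAs. Many intergenic lncRNAs start close to a protein-coding promoter and run away from it (divergent transcripts), and for most of them no function is known.

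Promoter sequences are shown for 3 members that were lower in every palmitic acid library than in every carnitine-treated library and for 2 that were not, Malat1 and 5430431A17Rik. They run from 250 bases before to 50 bases after the annotated start, 5′ to 3′ on the gene's strand, from RefSeq on GRCm38.p6. Capitals mark the E-box CANNTG, the motif bound by MyoD, myogenin and other basic helix-loop-helix factors, searched as CANNTG, which reads the same on both strands.
2610316D01Rik (chr3:45378211-45378510, minus strand): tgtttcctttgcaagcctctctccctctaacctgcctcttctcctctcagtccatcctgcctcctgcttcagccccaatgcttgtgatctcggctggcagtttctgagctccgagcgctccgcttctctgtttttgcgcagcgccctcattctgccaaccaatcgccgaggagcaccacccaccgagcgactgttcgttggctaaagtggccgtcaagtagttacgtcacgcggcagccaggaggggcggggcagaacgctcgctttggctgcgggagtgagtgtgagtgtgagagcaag
1500004A13Rik (chr3:88832498-88832797, minus strand): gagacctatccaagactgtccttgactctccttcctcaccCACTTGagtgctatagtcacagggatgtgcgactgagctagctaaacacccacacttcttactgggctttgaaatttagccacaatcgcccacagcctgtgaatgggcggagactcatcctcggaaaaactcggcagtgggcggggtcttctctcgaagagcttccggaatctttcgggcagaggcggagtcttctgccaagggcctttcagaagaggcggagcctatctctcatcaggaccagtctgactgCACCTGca
4930429F24Rik (chr9:79793391-79793690, plus strand): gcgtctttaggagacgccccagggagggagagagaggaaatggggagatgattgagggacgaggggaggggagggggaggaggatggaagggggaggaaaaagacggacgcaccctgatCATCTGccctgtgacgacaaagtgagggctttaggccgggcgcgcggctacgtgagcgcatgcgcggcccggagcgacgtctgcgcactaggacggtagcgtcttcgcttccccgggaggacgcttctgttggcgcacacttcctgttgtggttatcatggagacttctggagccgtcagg
Malat1 (chr19:5802623-5802922, minus strand): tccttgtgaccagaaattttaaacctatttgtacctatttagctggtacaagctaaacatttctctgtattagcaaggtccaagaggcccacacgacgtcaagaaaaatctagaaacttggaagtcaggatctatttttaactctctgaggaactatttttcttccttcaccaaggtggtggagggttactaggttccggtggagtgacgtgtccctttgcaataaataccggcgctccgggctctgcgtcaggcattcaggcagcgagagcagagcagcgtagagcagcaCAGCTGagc
5430431A17Rik (chr7:44484267-44484566, plus strand): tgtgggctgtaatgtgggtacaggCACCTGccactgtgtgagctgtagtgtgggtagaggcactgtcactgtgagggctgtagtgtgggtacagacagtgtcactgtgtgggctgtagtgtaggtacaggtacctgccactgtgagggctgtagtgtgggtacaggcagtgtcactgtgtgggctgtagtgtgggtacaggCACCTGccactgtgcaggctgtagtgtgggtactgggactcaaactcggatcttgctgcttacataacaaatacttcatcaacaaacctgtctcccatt

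The promoter of 2610316D01Rik held no E-box in this window and 19 CpG dinucleotides, and that of 4930429F24Rik held 1 E-box and 25 CpGs. The promoter of 1500004A13Rik held 2 E-boxes and 11 CpGs, that of Malat1 held 1 E-box and 10 CpGs, and that of 5430431A17Rik held 2 E-boxes and 1 CpG. RefSeq promoters matched 105 of the 232 members with 129 starts. E-boxes stood in 75.2% of these windows and in 72.3% of all 32851 RefSeq promoter windows. The E-box form CAGCTG stood in 18.6% of the members' windows and in 16.3% of all windows. The TATA motif TATAAA was in 14.7% against 13.6%, CCAAT in 37.2% against 37.4% and the GC box GGGCGG in 42.6% against 35.7%, each searched on both strands. The direct repeat known as DR1, a pair of AGGTCA words with any single base between them, as read by PPAR receptors and searched on both strands, was in none of the 129 member windows and in 0.0396% of all windows. Divergent members had the most CpG-rich windows, with a median of 29.5 CpGs and 69.2% GC, against 2.0 CpGs and 47.0% GC for members farther than 5 kb from any protein-coding gene.

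Several members span microRNA genes. The mature sequences below are from RefSeq on GRCm38.p6, with the seed (bases 2 to 8) in capitals, since the seed decides which messenger RNAs a microRNA pairs with.
miR-206-3p (in Gm28653, chr1:20679055-20679076, plus strand): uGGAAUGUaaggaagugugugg
miR-133b-3p (in Gm28653, chr1:20682834-20682855, plus strand): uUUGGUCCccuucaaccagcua
let-7c-5p (in Lncppara, chr15:85706616-85706637, plus strand): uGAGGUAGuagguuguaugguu
let-7b-5p (in Lncppara, chr15:85707325-85707346, plus strand): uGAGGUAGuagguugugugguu
miR-100-5p (in Mir100hg, chr9:41531437-41531458, plus strand): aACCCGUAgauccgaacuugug
miR-125b-5p (in Mir100hg, chr9:41581940-41581961, plus strand): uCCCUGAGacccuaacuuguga
miR-374b-5p (in Ftx, chrX:103573112-103573133, minus strand): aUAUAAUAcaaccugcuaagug
miR-421-5p (in Ftx, chrX:103572966-103572986, minus strand): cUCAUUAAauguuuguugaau

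Gm28653 covers the locus of miR-206 and miR-133b, microRNAs found mainly in muscle. The let-7b and let-7c-2 genes inside Lncppara share the seed GAGGUAG, while the other printed microRNAs each have a seed of their own. The libraries measured the long transcripts, not the mature microRNAs.

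Libraries differed in 2 measures that touch these results. Total counts were 3085957, 2449933 and 2631803 in the carnitine-treated libraries, 5135035, 3442731 and 3326017 in the palmitic acid libraries and 2309829, 2726469 and 3309049 in the control libraries. The other measure, called the library ratio here, divides the counts in 9510 protein-coding genes that have no annotated gene on the other strand over an exon by the counts in 1711 noncoding rows that lie opposite a protein-coding gene's exons. It was 0.831, 0.653 and 0.701 in carnitine-treated libraries, 3.48, 1.21 and 1.22 in palmitic acid libraries and 0.685, 0.633 and 1.18 in control libraries. Palmitic acid library 1 and control library 3 therefore stood apart from the others of their groups. The library kit keeps the strand of the RNA, but the strand setting used in counting is not given in the sources used here. A ratio under 1 means that the 1711 noncoding rows held more counts than the 9510 coding genes. Whether reads were assigned to the wrong strand was not tested, so the counts of any member may include reads from the other strand. The part of this ratio in the differences between groups was not tested beyond the values given beside them. Summed FPKM of the 14 myotube markers was 4329 to 5302 in carnitine-treated libraries, 7121 to 11521 in palmitic acid libraries and 4035 to 6572 in control libraries. Over the 5 fibroblast markers the sum was 492 to 637 FPKM in carnitine-treated libraries, 753 to 1290.4 FPKM in palmitic acid libraries and 413 to 746 FPKM in control libraries. Nearly all of this sum was the collagens Col1a1 and Col3a1. Dcn reached at most 4.66 FPKM, Pdgfra 1.48 FPKM and Thy1 0.127 FPKM in any library. Macrophage markers (3 of 4 with a row) summed to 41.2 to 43.2 FPKM with carnitine, 17 to 38.2 FPKM with palmitic acid and 36.8 to 49.0 FPKM in controls, and endothelial markers (2 of 3 with a row) to at most 0.194 FPKM in any library. The macrophage sum was nearly all Csf1r, with Cd68 at most 2.41 FPKM and Adgre1 at most 0.186 FPKM in any library. The 7 cycling myoblast markers summed to 14.9 to 24.2 FPKM with carnitine, 27.0 to 38.1 FPKM with palmitic acid and 15.5 to 22.5 FPKM in controls. None of these lists has a gene that is a member, and their part in the results was not tested. FPKM values are not TMM-scaled. On log2(FPKM + 1) the median difference over all genes tested was 0.29 for palmitic acid against control and -0.34 for carnitine-treated against palmitic acid. The part of this shift in the marker sums was not tested. In bulk RNA, fewer cells that make a transcript and less of it in each cell cannot be told apart.

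Most of the members were low. The median member had 120.5 counts over the 9 libraries and 3.27 FPKM on average, 25 members had at least 1000 counts, and 95 had fewer than 100. The 10 members with most counts held 45.3% of the 113650 counts in all members. Counts were seen in all 9 libraries for 176 members. By name, 116 carry a predicted-gene symbol (Gm), 73 a RIKEN clone symbol and 43 another name. In the GENCODE M21 annotation, which was joined by gene ID, 211 had a spliced transcript and 21 had a single exon. In that older annotation 20 of the 232 overlapped a protein-coding gene, so the word intergenic holds for these 20 only by the table's own spans.

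Per kilobase, Gm10874 had the highest level, with a mean of 145.8 FPKM over the 9 libraries, followed by Gm47162 with 99.4, Gm38102 with 70.6, Gm14221 with 55.9 and Bvht with 55.2 FPKM. Bvht is Braveheart, a mouse lncRNA known for cardiac lineage commitment. Gm26964, Malat1, Gm47916, Gm48795 and 4930429F24Rik followed at 45.1 to 54.7 FPKM. Neat1, the member with the fourth largest count, averaged 6.38 FPKM because its row is 20.8 kb long.

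Together the members took 0.405%, 0.451% and 0.461% of the counts in the carnitine-treated libraries. They took 0.313%, 0.365% and 0.365% in the palmitic acid libraries and 0.486%, 0.476% and 0.393% in the control libraries. Every palmitic acid library had a smaller share than every carnitine-treated and every control library. In the 142 members that overlapped no other row of the table on either strand, the summed share showed no such gap. Their share was 0.1301%, 0.142% and 0.142% with carnitine, 0.141%, 0.139% and 0.132% with palmitic acid, and 0.149%, 0.147% and 0.135% in controls. Fold changes of members with no row on the opposite strand are given below, and most went the same way as over all members.

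For carnitine-treated against palmitic acid libraries, most tested members had a fold change above 0 in the fit of all 9 libraries. The median log2 fold change over the 177 members that passed the filter on low counts was 0.88, against -0.10 over all 12548 genes tested. Of the 177, 138 lay above 0 and 39 below. With the library ratio as a covariate the median was -0.04, with 83 above 0 and 94 below, and with any 1 library left out it was 0.59 to 1.19, lowest without palmitic acid library 1. No single member reached an adjusted p of 0.05, where 0.0% of all genes did, and the smallest adjusted p of a member was 0.125 (edgeR's quasi-likelihood test, Benjamini-Hochberg adjusted). At an unadjusted p under 0.05, 58 members were higher, where 15.9% of all genes were, and 4 were lower, where 8.34% of all genes were. In 64 members (36.2%) every carnitine-treated library was above every palmitic acid library, and in 8 (4.52%) every one was below, against 20% and 18.3% of all genes. DESeq2 called 19 members higher and none lower, where it called 4.59% of all genes higher and 1.0% lower. With no filter on low counts edgeR called 44 members higher and 2 lower, where it called 5.33% and 0.648% of all genes.

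For palmitic acid against control most tested members had a fold change below 0. Their median log2 fold change was -0.86, against 0.06 over all genes tested, with 38 of 177 above 0 and 139 below. With the library ratio as a covariate the median was 0.0001, with 89 above 0 and 88 below, and without palmitic acid library 1 it was -0.52. Again no member was called, among 0.0% of all genes, and the smallest adjusted p was 0.139 by edgeR's quasi-likelihood test. At an unadjusted p under 0.05, 2 members were higher (5.67% of all genes) and 58 lower (13.9% of all genes). The libraries of the 2 groups did not overlap in 7 members that were higher (3.95%, against 11.7% of all genes) and in 39 that were lower (22.03%, against 10.9% of all genes). DESeq2 called 17 members lower and none higher, where it called 0.351% of all genes higher and 3.13% lower. With no filter on low counts edgeR called 2 members higher and 45 lower, where it called 0.302% and 4.59% of all genes. Both comparisons use the same 3 palmitic acid libraries, so their mirror image is not a separate observation.

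Palmitic acid with carnitine against control showed no shift. The members' median log2 fold change was 0.00, against -0.02 over all genes, with 90 above 0 and 87 below. No member was called, where 0.0% of all genes were, by edgeR or by DESeq2, and at an unadjusted p under 0.05, 1 member was higher (0.877% of all genes) and 1 lower (1.88% of all genes). The lower one was A930029G22Rik, with 7.59, 8.50 and 5.09 CPM (counts scaled to a common library size by the trimmed mean of M-values, TMM) in carnitine-treated libraries, against 10.8, 25.7 and 15.6 CPM in control libraries. The groups did not overlap in 7 members that were higher (3.69% of all genes) and 7 that were lower (4.84% of all genes). The log2 fold change of A930029G22Rik was -1.30 ± 0.47 (SE, n = 3 a group). The higher one was Gm46620, with 6.21, 2.83 and 2.12 CPM against 0, 0.857 and 1.15 CPM, a log2 fold change of 2.32 ± 0.91. 

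The 55 members that did not pass the filter on low counts had totals of 45 to 108 with a median of 54, against a median total of 207 for those tested. Their fold changes are not described.

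**Figure D1:**
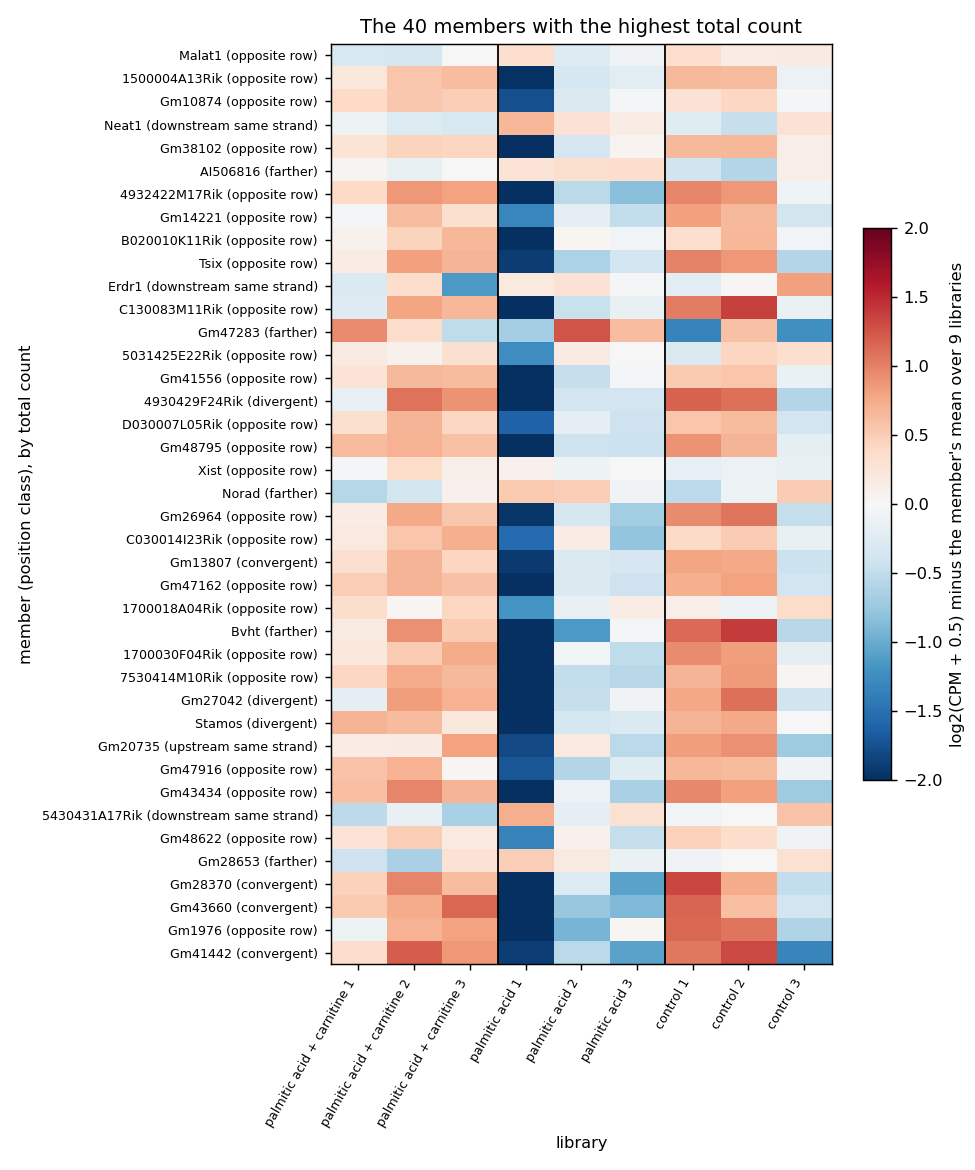
Level of the 40 members with the highest total count in each of the 9 libraries, as log2(CPM + 0.5) minus the member's own mean over the libraries, with colour from blue (2 below) to red (2 above). Palmitic acid library 1 is the lowest library for most members. Members that do not follow that pattern include Malat1, Neat1, Xist, AI506816, Norad and 5430431A17Rik.

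Fold changes differed between members in different positions, which is described here without a test. The members were sorted into 6 classes by position: 81 had another row of the table on the opposite strand, and the rest were placed by their nearest protein-coding gene, within 5 kb (22 convergent, 61 divergent, 9 upstream and 8 downstream on the same strand) or farther (51). In the 71 tested members with a row on the opposite strand, the median log2 fold change was 0.96 for carnitine-treated against palmitic acid (66 above 0, 5 below) and -1.05 for palmitic acid against control (7 above, 64 below). The 14 tested convergent members, whose 3′ end faces the 3′ end of the neighbour, had medians of 1.19 for carnitine-treated against palmitic acid and -1.39 for palmitic acid against control, and the medians that follow are given in this order of comparisons. The 46 tested divergent members had medians of 0.77 and -0.63, and the 7 that lay upstream on the same strand had 1.10 and -1.05. The 32 tested members farther than 5 kb from any protein-coding gene had medians of 0.11 and -0.10, with 16 on each side of 0 in both comparisons. The 7 tested members that lay downstream of a gene on its strand had medians of -0.39 and -0.14. With the library ratio as a covariate in the same fit, the medians of the class with an opposite row were 0.01 and 0.00. Those of the convergent class kept their signs at 0.24 and -0.22, while those of the divergent class turned to -0.26 and 0.16. Upstream members then had 0.08 and 0.08, downstream members -0.10 and -0.39, and far members -0.07 and 0.05. The ratio was higher in all 3 palmitic acid libraries than in any other library, so ratio and treatment cannot be told apart in this design.

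**Figure D2:**
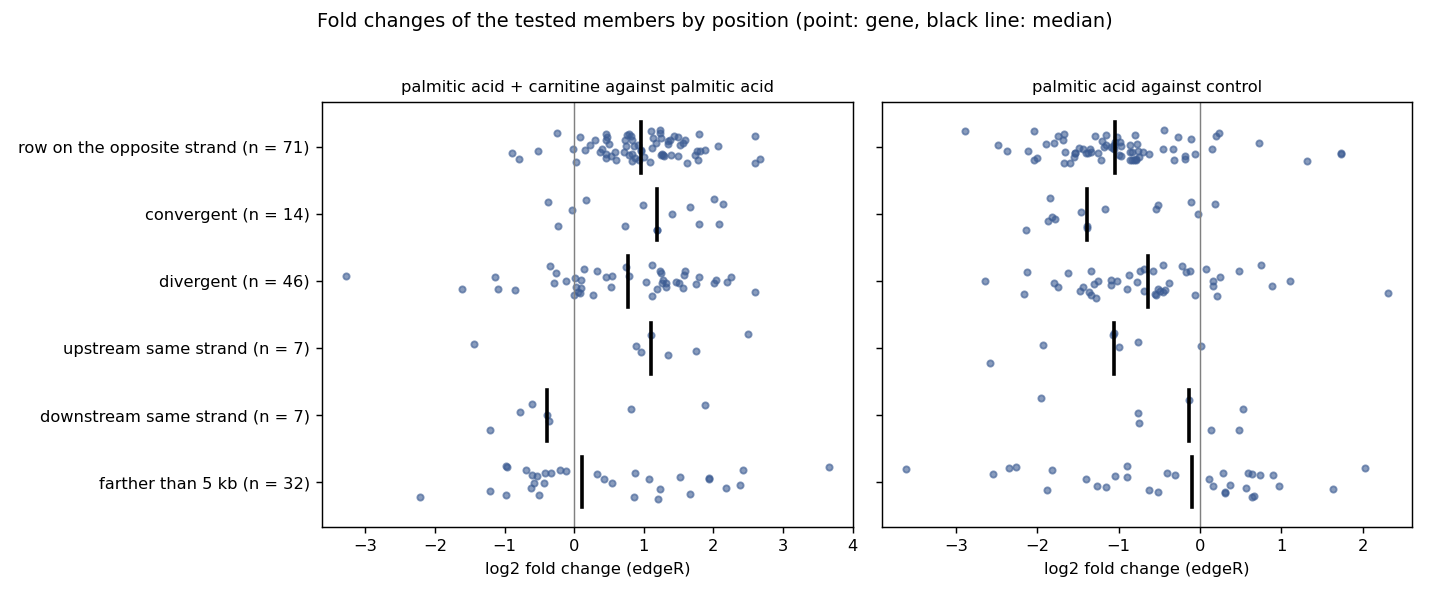
Log2 fold change of each tested member (points) by position class, with the class median (black line), for palmitic acid with carnitine against palmitic acid on the left and palmitic acid against control on the right. Members with a row on the opposite strand have medians of 0.96 and -1.05, and those farther than 5 kb from a protein-coding gene centre near 0 at 0.11 and -0.10.

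Shares of counts also differed between position classes. Members with an opposite row took 0.296% ± 0.0229 of the counts in carnitine-treated libraries, 0.207% ± 0.0346 in palmitic acid libraries and 0.304% ± 0.0437 in control libraries (SD, n = 3 each). Members farther than 5 kb and with no opposite row took 0.0464% ± 0.00184 with carnitine, 0.0542% ± 0.00146 with palmitic acid and 0.0453% ± 0.00200 in controls. The summed share of the class with an opposite row was thus lower in palmitic acid libraries, and that of the far class was higher. These shares are of unscaled library totals. Fold changes of the far class, from TMM-scaled counts, had 16 of 32 tested members on each side of 0 for palmitic acid against control.

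Within groups the members moved as well. Palmitic acid library 1 had a median of 0.393 times the mean CPM of palmitic acid libraries 2 and 3 over the 177 tested members, with 141 below that mean. Control library 3 had a median of 0.678 times the mean of control libraries 1 and 2, with 124 below. In members with an opposite row the medians of these ratios were 0.358 and 0.589, and in downstream members they were 1.36 and 1.53. These 2 libraries are those with the higher library ratios of their groups.

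**Figure D3:**
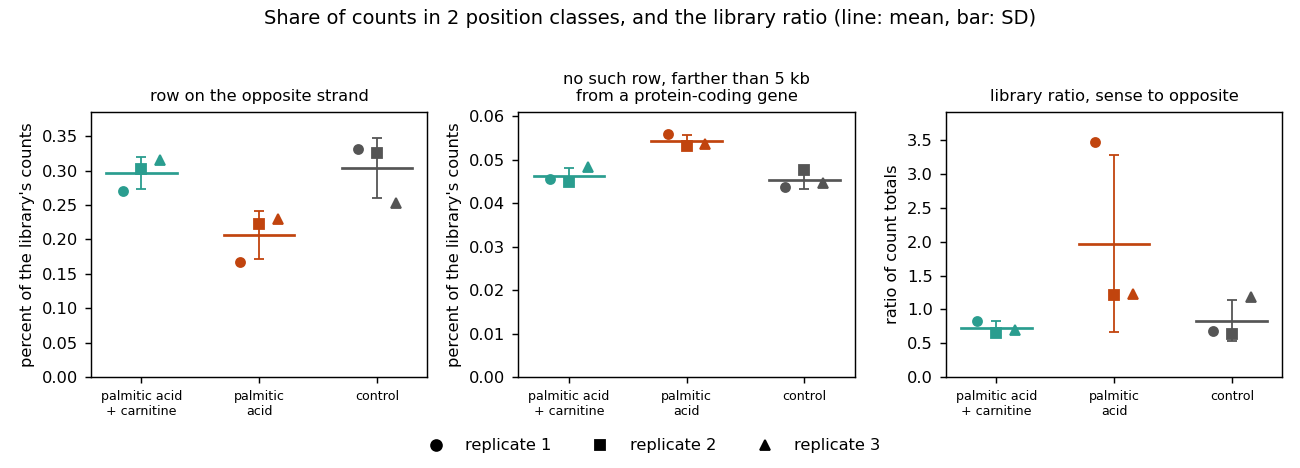
Percent of each library's counts in members with a row on the opposite strand (left) and in members farther than 5 kb from a protein-coding gene with no opposite row (middle), and the library ratio (right), by group, with each library as a point, the mean as a line and the SD as a bar. Palmitic acid library 1 has the lowest opposite-row share and the highest library ratio, 3.48.

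The 81 members with an opposite row formed 102 pairs of rows. The member had more counts than its partner in 73 pairs and more counts per kilobase in 63, and in 30 pairs the partner was a member too. For some long-studied genes most counts lay on the row of the other strand. Malat1 (chr19:5845718-5852700 on GRCm39, minus strand) had 11177 counts over the 9 libraries, or 1601 per kilobase. Gm37376, a 0.453-kb row opposite it that awaits experimental validation in the annotation, had 49578 counts, or 109444 per kilobase. Gm37376 stood at 1529, 2839.5 and 3002 CPM in carnitine-treated libraries, 272, 833 and 1002 CPM in palmitic acid libraries and 4829.9, 4398 and 968 CPM in control libraries. It was lowest in palmitic acid library 1, and control library 3 lay among the palmitic acid libraries. Malat1 itself had 282, 281 and 354 CPM with carnitine, 449, 295 and 339 CPM with palmitic acid and 446, 391 and 398 CPM in controls, so its groups overlapped in both comparisons that involve palmitic acid alone. Its log2 fold changes were -0.24 ± 0.26 for carnitine-treated against palmitic acid and -0.19 ± 0.26 for palmitic acid against control.

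Xist (chrX:102503972-102526860, minus strand) had 1486 counts, or 82.8 per kilobase of its row. Tsix (chrX:102475123-102528563, plus strand), its antisense partner and repressor in the early embryo, had 2086 counts, or 343 per kilobase. Tsix had 81.1, 130.3 and 118 CPM in carnitine-treated libraries, 19.2, 47.1 and 56.2 CPM in palmitic acid libraries and 146, 135 and 49.0 CPM in control libraries. All carnitine-treated libraries were above all palmitic acid libraries, and control library 3 fell within the palmitic acid range. The log2 fold changes of Tsix were 1.44 ± 0.44 with carnitine over palmitic acid and -1.44 ± 0.44 with palmitic acid over control. Xist had 48.0, 63.3 and 53.5 CPM with carnitine, 52.0, 45.7 and 49.3 CPM with palmitic acid and 43.7, 45 and 44.1 CPM in controls, and its log2 fold changes were 0.16 ± 0.22 with carnitine over palmitic acid and 0.15 ± 0.22 with palmitic acid over control. The log2 ratio of Tsix to Xist counts averaged 0.98 ± 0.199 with carnitine, -0.40 ± 0.899 with palmitic acid and 1.16 ± 0.876 in controls (SD, n = 3 each). Between carnitine-treated and palmitic acid libraries the two-sided exact permutation p was 0.1, the smallest that 3 against 3 libraries allow, and 0.191 after Benjamini-Hochberg adjustment over 21 comparisons of library values. Between palmitic acid and control libraries the exact p was 0.2, or 0.35 adjusted. Xist and Tsix stand in a list chosen with earlier results of these data known, so these p-values describe the libraries and give no support. Without a stated counting strand, reads of Xist and Tsix cannot be told apart over the stretch they share.

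Another such locus lies on chromosome 5 near Setd1b and Rhof. There Gm38102 (chr5:123272002-123275758, plus strand) with 3745 counts and 4932422M17Rik (chr5:123276994-123279632, plus strand) with 2978 counts both lie opposite AI480526, a member with 285 counts. 4932422M17Rik had 135, 187 and 178 CPM in carnitine-treated libraries, 18.5, 69.8 and 57.0 CPM in palmitic acid libraries and 202, 186 and 95.9 CPM in control libraries. Palmitic acid libraries were below all others, with log2 fold changes of 1.79 ± 0.43 for carnitine-treated against palmitic acid and -1.74 ± 0.43 for palmitic acid against control. AI480526 on the other strand had 7.59, 12.3 and 11.5 CPM with carnitine, 8.26, 10.5 and 12.0 CPM with palmitic acid and 8.84, 11.1 and 6.34 CPM in controls, and its groups overlapped. Gm41556 with 1749 counts likewise lies opposite Trp53cor1, the p53-induced lincRNA-p21, which had 199 counts.

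**Figure D4:**
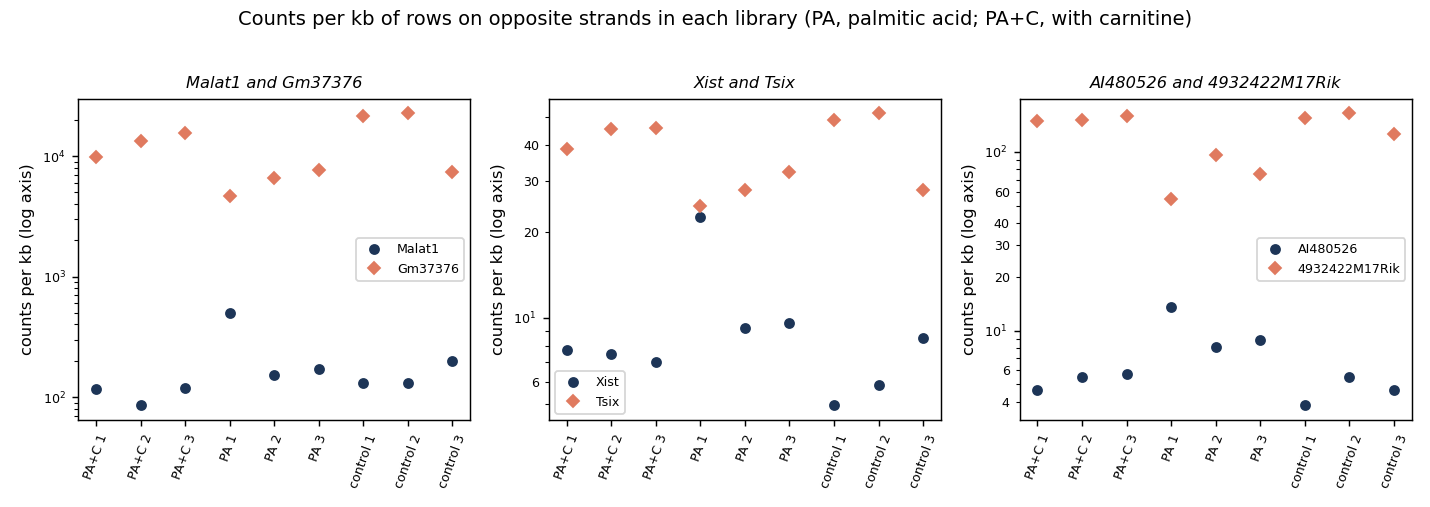
Counts per kilobase of row length (log axis, not scaled for depth) in each library for 3 pairs of rows on opposite strands. The row in orange lies above the row in blue in every library, and the gap is narrowest in palmitic acid library 1 for all 3 pairs.

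Of the 31 names listed as nuclear and structural lncRNAs, 20 had rows, 14 were tested and none was called by edgeR in any comparison (0.0% of all genes). Some of the 31 are second names of a listed gene, such as Cyrano for Oip5os1. The 14 are not all lncRNA rows, since the table types Tug1 and Trerf1 as protein-coding. They also include H19, which was set aside as a member, and Peg13, which is not a member. At an unadjusted p under 0.05, 2 of the 14 were higher and 1 lower for carnitine-treated against palmitic acid, where 15.9% and 8.34% of all genes were. For palmitic acid against control 0 were higher and 1 lower, where 5.67% and 13.9% of all genes were. The median log2 fold change of the 14 was 0.04 for carnitine-treated against palmitic acid and 0.06 for palmitic acid against control, against -0.10 and 0.06 over all genes. Of the 11 that are members, 10 were tested, with medians of 0.07 for carnitine-treated against palmitic acid and -0.11 for palmitic acid against control. Neat1 (chr19:5874736-5895506, minus strand, no row on the other strand) had 114, 101 and 97.2 CPM in carnitine-treated libraries, 193, 148 and 135 CPM in palmitic acid libraries and 103, 87.9 and 149.5 CPM in control libraries. Every carnitine-treated library lay below every palmitic acid library, while control library 3 overlapped the palmitic acid libraries. The log2 fold changes of Neat1 were -0.61 ± 0.27 (edgeR adjusted p = 0.187) with carnitine over palmitic acid and 0.48 ± 0.27 (edgeR adjusted p = 0.32) with palmitic acid over control. Its nearest coding gene, Frmd8, ends upstream of it on the same strand and had log2 fold changes of -0.72 ± 0.26 with carnitine over palmitic acid and 0.41 ± 0.25 with palmitic acid over control.

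Norad (chr2:156229985-156234899, minus strand), which binds Pumilio proteins, had 26.2, 30.2 and 41.6 CPM with carnitine, 56.3, 55.4 and 37.0 CPM with palmitic acid and 27.0, 36.4 and 55.9 CPM in controls. Its groups overlapped, and the log2 fold changes were -0.60 ± 0.31 with carnitine over palmitic acid and 0.31 ± 0.31 with palmitic acid over control. Firre (chrX:49644621-49724198, minus strand), an X-linked nuclear RNA with repeats, had 8.63, 6.14 and 12.3 CPM with carnitine, 16.8, 10.8 and 16.3 CPM with palmitic acid and 12.3, 11.1 and 12.1 CPM in controls, and its groups overlapped too. Its log2 fold changes were -0.70 ± 0.35 with carnitine over palmitic acid and 0.31 ± 0.35 with palmitic acid over control. Oip5os1, known as Cyrano and as a partner of miR-7, had 10.0, 13.7 and 20.4 CPM with carnitine, 19, 16.6 and 8.88 CPM with palmitic acid and 14.7, 15.9 and 15 CPM in controls.

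Hotair, a transcript of the HoxC cluster, was at the edge of detection. It had 10, 7 and 13 counts in carnitine-treated libraries, 3, 8 and 4 counts in palmitic acid libraries and 11, 9 and 8 counts in control libraries, with log2 fold changes of 1.77 ± 0.79 with carnitine over palmitic acid and -1.66 ± 0.80 with palmitic acid over control. Morrbid, which in mouse myeloid cells represses the neighbouring cell-death gene Bcl2l11, had 7.59, 2.36 and 3.82 CPM with carnitine, 9.55, 7.75 and 8.88 CPM with palmitic acid and 4.91, 6.00 and 4.90 CPM in controls. Palmitic acid libraries were above all others, and the log2 fold changes were -0.90 ± 0.49 with carnitine over palmitic acid and 0.73 ± 0.49 with palmitic acid over control. Jpx and Ftx, activators of Xist in the X-inactivation centre, had 59 and 88 counts in all.

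The muscle list held 28 names, 17 with rows and 9 tested, and none was called by edgeR. The 9 include Sra1 and Mymx, which the table types as protein-coding, and Gm28438, which it types as a pseudogene. At an unadjusted p under 0.05, 3 were higher and 1 lower with carnitine against palmitic acid (15.9% and 8.34% of all genes), and 0 higher and 3 lower with palmitic acid against control (5.67% and 13.9% of all genes). The median log2 fold change of the 9 was -0.31 for carnitine-treated against palmitic acid and 0.05 for palmitic acid against control, and that of the 3 tested members among them -0.52 and 0.13. Gm28653 (chr1:20740106-20754522, plus strand), the miR-206 and miR-133b locus, had 13.5, 11.3 and 22.1 CPM in carnitine-treated libraries, 25.6, 20.5 and 16.3 CPM in palmitic acid libraries and 17.2, 18 and 22.5 CPM in control libraries. Its groups overlapped, and the log2 fold change for carnitine-treated against palmitic acid was -0.42 ± 0.32. 5430431A17Rik (chr7:44122962-44135562, plus strand) had 13.5, 17.5 and 12.3 CPM with carnitine, 32.6, 16.9 and 24.1 CPM with palmitic acid and 18.7, 19.3 and 29.1 CPM in controls. Carnitine-treated libraries were below all control libraries and overlapped the palmitic acid libraries. The log2 fold changes were -0.78 ± 0.32 against palmitic acid and -0.65 ± 0.33 against control. Dubr, also called Dum and known as a myogenic lncRNA in mouse, had 72 counts, and its groups overlapped between carnitine-treated and palmitic acid libraries.

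Bvht, on chromosome 18 and farther than 5 kb from a coding gene, differed in the direction of most members. It had 36.9, 61.9 and 46.7 CPM in carnitine-treated libraries, 5.68, 14.4 and 31.8 CPM in palmitic acid libraries and 71.7, 86.6 and 21.9 CPM in control libraries. All carnitine-treated libraries were above the palmitic acid libraries, while control library 3 lay inside the palmitic acid range. The log2 fold changes were 1.52 ± 0.56 (edgeR adjusted p = 0.149) with carnitine over palmitic acid and -1.82 ± 0.56 (edgeR adjusted p = 0.148) with palmitic acid over control. The fold change with carnitine over palmitic acid turned to -0.24 with the library ratio as a covariate. Its row has no partner on the other strand in the table.

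Host genes of small nucleolar RNAs, which guide the chemical modification of ribosomal RNA, made a list of 25 genes, 23 with rows and 9 tested. The 9 include Nop56, which the table types as protein-coding, and Gas5, Snhg14 and Zfas1, which are not members. None of the 9 was called by edgeR. At an unadjusted p under 0.05, 1 was higher and 2 lower for carnitine-treated against palmitic acid (15.9% and 8.34% of all genes), and 1 higher and 1 lower for palmitic acid against control (5.67% and 13.9% of all genes). Snhg14 was the gene higher in the former comparison and the gene lower in the latter. The median log2 fold change of the 9 was -0.92 for carnitine-treated against palmitic acid and 0.01 for palmitic acid against control. That of the 5 tested members among them was -0.96 and 0.01. Snhg20 had 2, 0 and 8 counts in carnitine-treated libraries, 52, 14 and 31 counts in palmitic acid libraries and 4, 2 and 11 counts in control libraries. Palmitic acid libraries were above all others in counts, with log2 fold changes of -2.22 ± 0.91 with carnitine over palmitic acid and 1.64 ± 0.86 with palmitic acid over control. Snhg8 had 6.90, 4.25 and 7.64 CPM with carnitine, 9.03, 10.8 and 4.58 CPM with palmitic acid and 13.3, 6.00 and 7.49 CPM in controls, and its groups overlapped. Snhg5, Snhg15 and Snhg17 had 121, 103 and 181 counts, and their groups overlapped in both comparisons that involve palmitic acid alone. Snhg12, Snhg18 and Epb41l4aos had 46 to 56 counts and were not tested.

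Of 25 listed microRNA hosts, 12 had rows, 4 were tested and none was called by edgeR. At an unadjusted p under 0.05, 2 were higher and 0 lower with carnitine against palmitic acid (15.9% and 8.34% of all genes), and 0 higher and 2 lower with palmitic acid against control (5.67% and 13.9% of all genes). These were Dnm3os and Bvht in both comparisons. No RefSeq microRNA was found inside Bvht on its strand, so Bvht counts as a host only by the list. Mir100hg, the host of miR-100 and miR-125b-1 printed above, had 13, 6 and 39 counts in carnitine-treated libraries, 42, 33 and 21 counts in palmitic acid libraries and 18, 10 and 17 counts in control libraries. Scaled for library size its groups overlapped, at 4.49, 2.83 and 16.6 CPM with carnitine, 5.42, 9.14 and 6.02 CPM with palmitic acid and 8.84, 4.29 and 4.90 CPM in controls. Lncppara, which spans let-7c-2 and let-7b, had 13, 2 and 0 counts with carnitine, 26, 8 and 11 counts with palmitic acid and 0, 4 and 11 counts in controls. Ftx, which spans miR-374b and miR-421, had 17, 3 and 11 counts with carnitine, 11, 6 and 4 counts with palmitic acid and 26, 7 and 3 counts in controls.

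The medians of divergent members and of the coding genes they start beside had opposite signs in both comparisons. In the 51 members that lay head to head with their nearest coding gene within 5 kb and were tested along with it, the members' median log2 fold change was 0.79 and the neighbours' -0.29 for carnitine-treated against palmitic acid, with the same sign in 19. For palmitic acid against control the medians were -0.73 and 0.31, with the same sign in 22. Over all genes tested the medians were -0.10 for carnitine-treated against palmitic acid and 0.06 for palmitic acid against control, with the signs of the neighbours. In the 46 tested divergent members without an opposite row, the library ratio as a covariate turned the medians to -0.26 and 0.16 in that order. Whether the opposite signs are particular to these pairs was not tested. In the 16 convergent pairs the medians of members and neighbours were 1.40 and -0.14 for carnitine-treated against palmitic acid and -1.50 and 0.20 for palmitic acid against control. In the 15 pairs with the member upstream on the same strand they were 1.10 and -0.39 for carnitine-treated against palmitic acid and -1.07 and 0.41 for palmitic acid against control. In the 7 pairs with the member downstream on the same strand they were -0.39 and -0.56 for carnitine-treated against palmitic acid, with the same sign in all 7. For palmitic acid against control these 7 pairs had medians of -0.14 and 0.18, with the same sign in 5.

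2610316D01Rik (chr3:45234872-45332695, minus strand) starts 138 bases from Pcdh10, a protocadherin gene that had 6 counts in all, and was the member with the smallest p. It had 18.6, 32.6 and 22.5 CPM in carnitine-treated libraries, 3.36, 5.26 and 7.16 CPM in palmitic acid libraries and 26.0, 31.7 and 12.1 CPM in control libraries. Palmitic acid libraries were below all others. The log2 fold changes were 2.25 ± 0.43 for carnitine-treated against palmitic acid (edgeR adjusted p = 0.125) and -2.17 ± 0.43 for palmitic acid against control (edgeR adjusted p = 0.139). This row has no partner on the opposite strand.

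4930429F24Rik (chr9:79700923-79710517, plus strand) starts 134 bases from Tmem30a, which encodes a subunit of lipid flippases. It had 51.1, 123 and 107 CPM with carnitine, 8.13, 44.0 and 43.8 CPM with palmitic acid and 131, 124 and 38.3 CPM in controls. Carnitine-treated libraries were all above the palmitic acid libraries, and control library 3 lay inside the palmitic acid range. Its log2 fold changes were 1.57 ± 0.58 with carnitine over palmitic acid and -1.62 ± 0.58 with palmitic acid over control. Both turned round once the library ratio was a covariate, to -0.38 with carnitine over palmitic acid and 0.19 with palmitic acid over control. Those of Tmem30a, without the covariate, were -0.34 ± 0.24 with carnitine over palmitic acid and 0.24 ± 0.24 with palmitic acid over control.

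1500004A13Rik (chr3:88690250-88739854, minus strand, with the pseudogene 5830417I10Rik opposite) was the member with the largest count after Malat1. It had 428, 547 and 566 CPM in carnitine-treated libraries, 93.8, 289 and 319 CPM in palmitic acid libraries and 583, 571 and 341 CPM in control libraries. Palmitic acid libraries were below all others, with log2 fold changes of 1.14 ± 0.40 with carnitine over palmitic acid and -1.09 ± 0.40 with palmitic acid over control. Gm10874, opposite the pseudogene Got2-ps1, had 436, 484 and 467 CPM with carnitine, 97.3, 271 and 325 CPM with palmitic acid and 404, 443 and 322 CPM in controls. Control library 3 overlapped palmitic acid library 3, and the log2 fold changes were 1.00 ± 0.37 with carnitine over palmitic acid and -0.76 ± 0.37 with palmitic acid over control. Gm38102 and Gm14221 had log2 fold changes of 0.96 ± 0.44 and 0.92 ± 0.36 for carnitine-treated against palmitic acid and of -1.07 ± 0.44 and -1.05 ± 0.36 for palmitic acid against control. With the library ratio as a covariate, the fold change for carnitine-treated against palmitic acid turned to -0.0202 for 1500004A13Rik, -0.27 for Gm38102 and -0.075 for Gm14221, and that for palmitic acid against control turned to 0.083 for Gm10874.

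**Figure D5:**
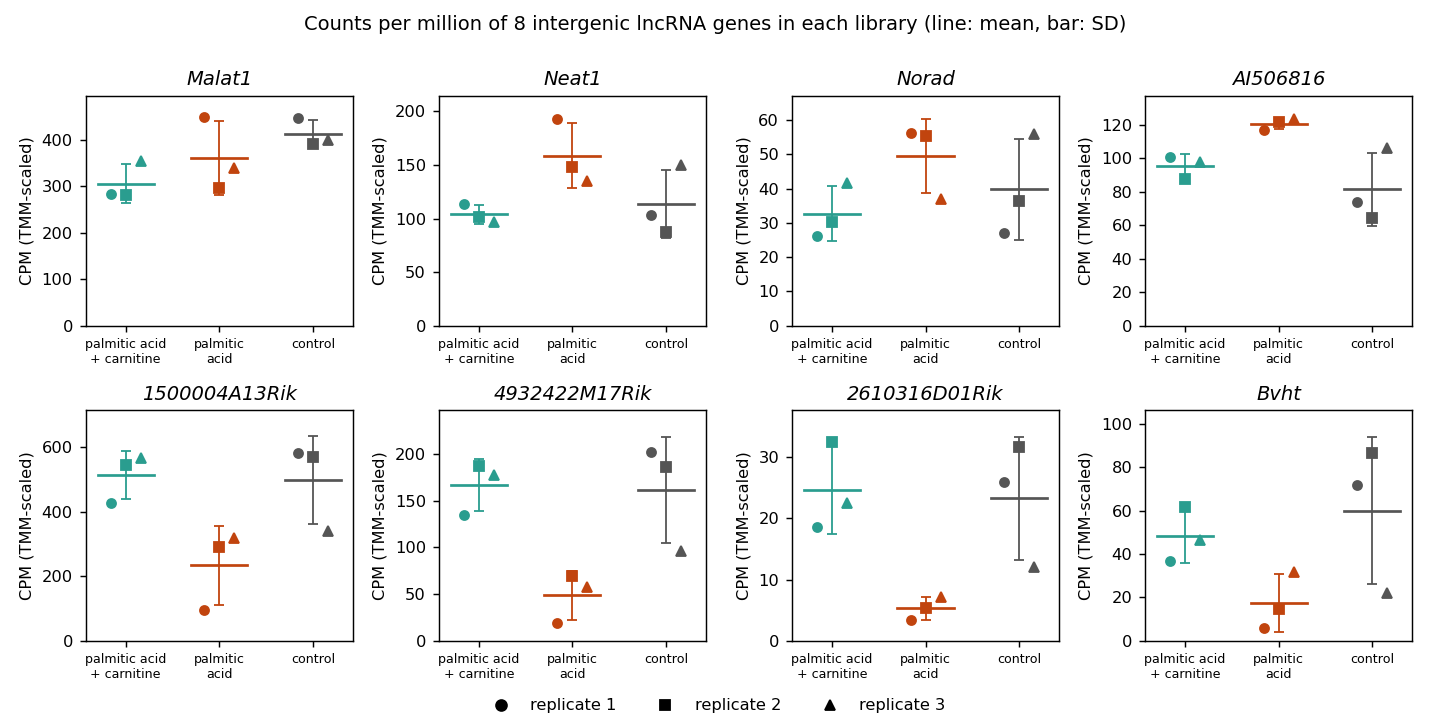
TMM-scaled CPM of 8 members in each library, by group, with the mean as a line and the SD as a bar. The 4 members in the lower row are lower in palmitic acid libraries than in carnitine-treated libraries, and AI506816 is higher in all 3 palmitic acid libraries, at 117 to 124 CPM, than in any other.

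Other members with small p values in both comparisons were Gm43660, Gm49484, Gm26981, Gm12811 and 7530414M10Rik. Gm43660 (chr5:31718156-31726416, minus strand, convergent with Slc4a1ap) had 27.6, 32.1 and 42.9 CPM in carnitine-treated libraries, 3.87, 11.1 and 10.0 CPM in palmitic acid libraries and 43.2, 29.1 and 14.4 CPM in control libraries. Its palmitic acid libraries were below all others, and the log2 fold changes were 2.08 ± 0.45 with carnitine over palmitic acid and -1.82 ± 0.45 with palmitic acid over control. Gm49484, 186 bases upstream of Nckap5l on its strand, had log2 fold changes of 1.75 ± 0.48 with carnitine over palmitic acid and -1.93 ± 0.48 with palmitic acid over control, and 7530414M10Rik, near Cyb5r3, had 1.59 ± 0.42 with carnitine over palmitic acid and -1.54 ± 0.42 with palmitic acid over control. Gm26981 had 10.4, 24.1 and 20 CPM with carnitine, 2.58, 1.66 and 8.02 CPM with palmitic acid and 42.2, 21.9 and 6.91 CPM in controls, so control library 3 overlapped the palmitic acid range. Its log2 fold changes were 2.18 ± 0.66 with carnitine over palmitic acid and -2.55 ± 0.66 with palmitic acid over control. Gm12811 rested on 1, 8 and 9 counts in palmitic acid libraries, with log2 fold changes of 2.67 ± 0.76 with carnitine over palmitic acid and -2.90 ± 0.76 with palmitic acid over control.

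AI506816 (chr5:23903294-23917665, minus strand) had the largest count among members whose palmitic acid libraries lay above all others. It had 101, 87.4 and 97.6 CPM in carnitine-treated libraries, 117, 121 and 124 CPM in palmitic acid libraries and 73.7, 64.3 and 106 CPM in control libraries. Palmitic acid libraries were above all others, with log2 fold changes of -0.34 ± 0.25 with carnitine over palmitic acid (edgeR adjusted p = 0.394) and 0.56 ± 0.25 with palmitic acid over control (edgeR adjusted p = 0.234). 2010320M18Rik, 102 bases from Pik3r2, had 0.690, 0.944 and 0 CPM with carnitine and 4.26, 1.66 and 10.9 CPM with palmitic acid, a log2 fold change of -3.27 ± 1.10. Gm46620 had 2.45, 4.71 and 4.30 CPM with palmitic acid and 0, 0.857 and 1.15 CPM in controls, a log2 fold change of 2.32 ± 0.89.

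Calls appeared once the libraries that stood apart in library ratio were left out, which left control and palmitic acid with fewer than 3 libraries each. The remaining control libraries had ratios of 0.685 and 0.633 and the remaining palmitic acid libraries 1.21 and 1.22. Ratio and treatment therefore cannot be told apart in this fit either. With all 9 libraries and the ratio as a covariate no member was called. The smallest adjusted p was then 0.441 for palmitic acid against control by edgeR. Without control library 3 and palmitic acid library 1 together, 38 members were called for carnitine-treated against palmitic acid by edgeR, 37 higher and 1 lower, where 11% of all genes were called higher and 2.62% lower. For palmitic acid against control 46 were called, 4 higher and 42 lower, where 6.18% and 13% of all genes were. The members called lower with palmitic acid and those called higher with carnitine shared 35, which is 83.3% of the 42 and 94.6% of the 37, and the palmitic acid libraries are common to both. Of the 42 called lower, 22 had a row on the opposite strand and 5 were farther than 5 kb from a coding gene. In that fit 2610316D01Rik had log2 fold changes of 1.96 ± 0.37 (edgeR adjusted p = 0.000533) with carnitine over palmitic acid and -2.21 ± 0.40 (edgeR adjusted p = 0.000189) with palmitic acid over control, and Bvht had 1.06 ± 0.29 (0.0124) with carnitine over palmitic acid and -1.77 ± 0.30 (0.000114) with palmitic acid over control. AI506816 was called higher in palmitic acid than in control, at 0.83 ± 0.19 (edgeR adjusted p = 0.00268), and so was Neat1, at 0.57 ± 0.18 (0.0291). Leaving out control library 3 alone gave 20 members called lower with palmitic acid, where 1.35% of all genes were called higher and 4.64% lower.

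Among members with no row on the opposite strand, a fit restricted to the 5944 such genes that were tested called 10 members higher for carnitine-treated against palmitic acid, where 0.808% of these genes were called higher and 0.0336% lower. It called 8 lower for palmitic acid against control, where 0.0673% were called higher and 0.858% lower. Called in both were 2610316D01Rik, Gm26981, Gm28370, Gm43660, Gm49484 and Gm41442, and Bvht and Gm45235 were called for palmitic acid against control only, a difference between comparisons that was not tested. The 105 members in this restricted fit had a median log2 fold change of 1.15 for carnitine-treated against palmitic acid. Of these, 79 lay above 0 and 26 below. For palmitic acid against control their median was -0.97, with 21 above 0 and 84 below. Over all 5944 genes the medians were -0.0063 and -0.0036 in the same order. Gm28370, convergent with its neighbour, had 26.6, 38.2 and 29.7 CPM in carnitine-treated libraries, 3.48, 15.8 and 8.88 CPM in palmitic acid libraries and 49.1, 32.6 and 13.5 CPM in control libraries. In the restricted fit its log2 fold changes were 2.10 with carnitine over palmitic acid (edgeR adjusted p = 0.0432) and -2.09 with palmitic acid over control (0.0422), and in the fit of all genes they were 1.79 ± 0.52 (0.125) with carnitine over palmitic acid and -1.78 ± 0.52 (0.143) with palmitic acid over control.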

How the data were processed

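RNA-seq of 9 C2C12 myotube libraries, 3 a group, was made with a kit for stranded mRNA libraries, per the labels' protocols. The submitters' processing notes name HISAT2 (version 2.2.0), HTSeq (version 0.13.5), Bowtie2 (version 2.4.2), Trim Galore (version 0.6.4) and edgeR, without roles or settings, and positions fit GRCm39, which those notes list. The deposited table gives raw counts per gene and the authors' FPKM values, 1 column of each per library.

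Members were found from the table's type, positions and counts. The members and the gene lists were chosen with earlier results of these data known. Counts of all 22831 rows entered 1 fit of the 9 libraries with edgeR 4.0.16 (TMM scaling, filterByExpr with a minimum count of 10 and a minimum total of 15, quasi-likelihood test, Benjamini-Hochberg adjustment over 12548 genes, threshold 0.05) in R 4.3.3. CPM values are TMM-scaled, errors of fold changes are SE and errors of CPM, FPKM and shares are SD. Called means an adjusted p under 0.05. Total counts were 2309829 to 5135035 a library, so members with few counts were measured coarsely. The exact permutation test for a single library value, with 3 libraries against 3, cannot go below 0.1. No p is given for a share of counts over the members, since they were chosen with results in view.

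The library ratio used GENCODE M21 (GRCm38), joined by gene ID for 22506 rows, with an exon overlap of at least 100 bases on the opposite strand. Promoter and microRNA sequences are RefSeq's on GRCm38.p6. Of 129 member promoters, 84 had the last 40 bases in a GENCODE transcript on the same strand and none in the reverse direction. Genes named are the 10 members with most counts, the 10 with the highest mean FPKM, the 8 higher and 8 lower members with the smallest p in each comparison, members in the lists and rows next to the limit of 45 counts. Lncppara, AI480526, Gm41556, Trp53cor1, Gm28370 and Gm41442 fall outside this rule and were chosen after their values were seen. Genes of that set beside those with values in the text are Gm47882, Gm4285, Gm38409, 4933413J09Rik, Gm26813 and others of like size. Palmitic acid libraries serve in 2 comparisons. Alternatives were DESeq2 1.42.0, limma 3.58.1 on log2(FPKM + 1) and log2(FPKM + 0.1), other scaling, filter, design and position limits, and leaving out libraries.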

Additional observations from a re-analysis of the deposited data

How the results depend on the processing

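Counts of called members depended on the processing. Against 0 called by edgeR with all 9 libraries, for carnitine-treated against palmitic acid DESeq2 called 19, no filter on low counts gave 46, leaving out control library 3 and palmitic acid library 1 together gave 38 and keeping only genes with no opposite-strand row gave 10. For palmitic acid against control the same settings gave 17, 47, 46 and 8, and leaving out each library in turn gave 0 to 20, the 20 without control library 3. Between carnitine-treated and control no setting tried called a member. With the library ratio as a covariate the members' median log2 fold change was -0.0405 for carnitine-treated against palmitic acid and 0.0001 for palmitic acid against control, and no member was called. With limma on log2(FPKM + 1) the median was 0.41 for carnitine-treated against palmitic acid, where the median of all genes was -0.34, and for palmitic acid against control it was -0.47, where that of all genes was 0.29, so FPKM values carry a shift of all genes. The cause of these differences was not tested.

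Of 1092 alternatives for 59 printed fold changes, 962 kept direction and call, 116 became called and 14 turned round. With the ratio as a covariate, carnitine-treated against palmitic acid turned to -0.24 for Bvht, -0.0202 for 1500004A13Rik, -0.27 for Gm38102, -0.075 for Gm14221, 0.0653 for Malat1, -0.38 for 4930429F24Rik and 0.0034 for Gm28653, and palmitic acid against control turned to -0.0348 for Norad, 0.083 for Gm10874 and 0.19 for 4930429F24Rik. With limma at pseudocounts of 1 and 0.1, Xist turned to -0.18 and -0.23 for carnitine-treated against palmitic acid, and Malat1 to 0.14 and 0.15 for palmitic acid against control. The share of counts in members for carnitine-treated minus control, -0.0124 percentage points, lay between -0.0419 and 0.00458 with 1 library left out. With all 232 members placed by their nearest coding gene, those with an opposite row included, 12 were convergent, 1 downstream and 13 upstream on the same strand within 1 kb, against 28, 9 and 21 within 5 kb.

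Correlations of same-numbered libraries' deviations from their group means ran from -0.39 to 0.26, and those of differently numbered libraries from -0.36 to 0.53. The highest was between control library 3 and palmitic acid library 1, which both stood apart in library ratio. These values therefore cannot settle whether replicate numbers pair the libraries. With the replicate block in the fit, 0 members were called in each of the 3 comparisons.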
